A study of Homo sapiens with 6 samples.

Results

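Expression is given for 9 receptors that leukocytes use to leave the blood, hold on to tissue and home to bone marrow or lymph node, measured in SEM cells, a human B-cell acute lymphoblastic leukemia line. These are CXCR4, ITGA4, ITGB1, ITGAL, ITGA6, SELPLG, CD44, CCR7 and S1PR1, and they were taken by gene symbol, which gave 9 of the 57820 genes in the deposited tables. Total RNA had been sequenced from 3 CTCF-WT and 3 CTCF-dRBR libraries. All 6 came from cells whose endogenous CTCF carries a miniAID-mClover3 tag, and, by the study's methods, whose OsTIR1(F74G) is always expressed. 5-Ph-IAA, an auxin analog that triggers destruction of the tagged protein, was given for 24 h, and doxycycline was given for the last 18 h to induce an HA-tagged CTCF. That CTCF was wild type in one line and lacked the RNA-binding region (RBR) in the other. The labels give the CTCF-dRBR genotype as miniAID-mClover3 plus TRE3G-HA-CTCF-dRBR, TRE3G being a doxycycline-responsive promoter, and name no transgene for CTCF-WT. Whether the 3 libraries of a group came from separate cultures is not stated in the sources used here, so the p-values measure the spread between these libraries, which may be technical. The comparison asks whether these receptor transcripts differ between the line whose induced CTCF lacks the RBR and the line whose induced CTCF has it. Each construct was carried by its own transduced line. An effect of the missing RBR therefore cannot be told apart from other differences between the lines.

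Homing proceeds in steps. Rolling on the vessel wall depends on selectins and their ligands, of which SELPLG (PSGL-1) is the main one on leukocytes. Chemokine receptors such as CXCR4 and CCR7 then signal through Gi proteins to switch integrins to their high-affinity state, and integrins, each a pair of an alpha and a beta chain, arrest the cell. CD44 binds hyaluronan in the matrix, and S1PR1 senses the sphingosine 1-phosphate gradient that draws lymphocytes back out of tissue. In B-cell leukemia, the CXCR4 axis and the ITGA4-ITGB1 integrin are known for holding blasts in the marrow niche, and ITGA6 is known for its link to entry into the central nervous system.

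Depth ranged from 51732177 to 53166735 counts in CTCF-WT and from 30034505 to 50457168 in CTCF-dRBR, the lowest total being that of CTCF-dRBR replicate 1. That library stood apart, with Spearman's rho of 0.913 to 0.968 to the others over all genes tested, against 0.971 to 0.997 among the other pairs. Its deviations from the mean of the 6 libraries also fell with gene GC content (rho -0.79 across genes, which are not independent replicates). CTCF-dRBR replicates 2 and 3 had a rho of -0.43 and 0.51, and the CTCF-WT libraries 0.72, 0.69 and 0.34. The GC trend therefore ran partly along the groups and was not confined to CTCF-dRBR replicate 1. Results that rest on CTCF-dRBR replicate 1 are given with and without that library. The cells carried their labelled identity, since 9 of 10 B cell precursor markers passed 1 CPM (counts scaled to library size) in all 6 libraries, summing to between 924 and 1119 CPM in CTCF-WT and between 630 and 1092 in CTCF-dRBR. None of 5 T cell, 5 erythroid and 3 endothelial markers passed it in any library. Of 7 monocyte or neutrophil markers 2 did (summed 10.2 to 13.2 CPM in CTCF-WT and 7.76 to 12.8 in CTCF-dRBR), as did 1 of 4 NK cell markers (14.9 to 23.3 and 9.26 to 15.7 CPM) and 1 of 4 platelet markers (1.89 to 4.15 and 0.134 to 3.28 CPM), and their part in the results was not tested. CTCF itself, endogenous and induced together, was 223 ± 22.0 CPM in CTCF-WT and 263 ± 10.4 in CTCF-dRBR (SD, n = 3 each), with adjusted p = 0.202 by limma-voom. In bulk RNA, fewer cells with a transcript and less of it per cell cannot be told apart.

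In CTCF-WT cells the integrin chains of the marrow axis were the most abundant of the receptors. Levels of different genes were compared in TPM, the transcript abundance that RSEM corrects for gene length. Mean TPM in CTCF-WT was 51.5 ± 23.1 for ITGB1, 32.0 ± 12.5 for ITGA4, 21.6 ± 7.86 for CXCR4, 11.3 ± 4.81 for CD44, 7.45 ± 2.82 for ITGAL and 5.31 ± 1.89 for ITGA6 (SD, n = 3). CCR7, which guides lymphocytes to lymph nodes, followed at 0.653 ± 0.199 TPM, and SELPLG and S1PR1 lay near the floor at 0.10 ± 0.01 and 0.0167 ± 0.0208 TPM. The wide SDs came with the share of TPM held by protein-coding genes, which ran from 30.2% to 63.2% over the 6 libraries. The order was steadier than the levels. Each gene was above the next in all 6 libraries, except that CD44 exceeded ITGAL in only 4 of 6. From ITGB1 down to ITGA6 the CTCF-WT ranges of neighbours overlapped as deposited, and did not once TPM were rescaled over protein-coding genes.

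Of the 9 receptors, 7 passed 1 CPM in at least 1 library and were tested, and 0 of them differed between CTCF-dRBR and CTCF-WT at an adjusted p under 0.05 by limma-voom. The background was 0% of 14044 genes, with a smallest adjusted p of 0.0959. Without adjustment, at a p under 0.05, limma-voom listed 3569 genes and edgeR's quasi-likelihood test 3460, edgeR also calling 0 after adjustment. The 3 receptors ITGA4, CXCR4 and ITGA6 were higher at that unadjusted threshold, against a background of 12.6%. The same 3 were the receptors whose CTCF-dRBR libraries all lay above all CTCF-WT libraries, against 20% of all genes, and 0 of 7 lay all below, against 17.5%. The median log2 fold change of the 7 was 0.39, and that of all genes tested was -0.0076.

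**Figure D1:**
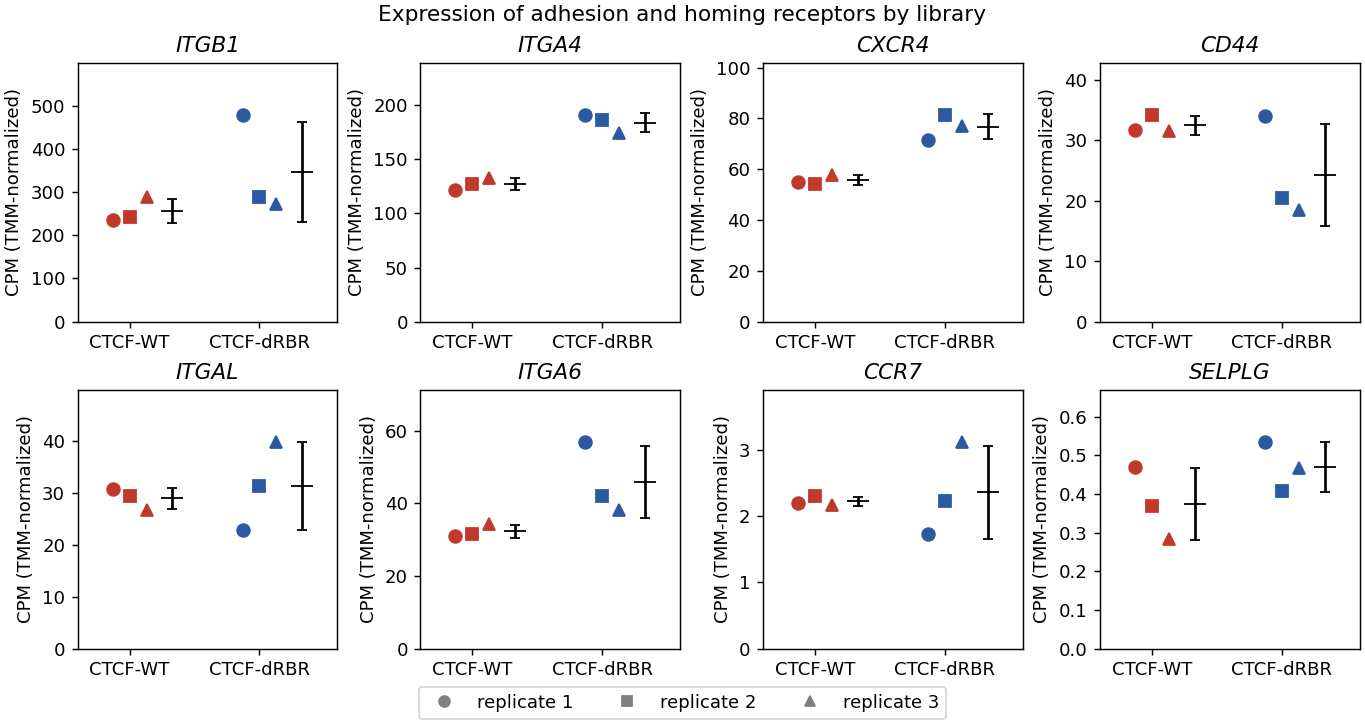
TMM-normalized CPM of 8 receptors (one panel each, axes from 0) in CTCF-WT (red) and CTCF-dRBR (blue) libraries, with symbols for the replicate and bars for mean ± SD (n = 3). CXCR4, ITGA4 and ITGA6 do not overlap between the groups, and CTCF-dRBR replicate 1 is the highest library for ITGB1 and ITGA6 and the lowest for ITGAL and CCR7.

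CXCR4, the receptor for the marrow chemokine CXCL12 (ENSG00000121966.6, GRCh37 chr2:136871919-136876747, minus strand), was measured at 54.9, 54.1 and 57.9 CPM in CTCF-WT and 71.6, 81.4 and 77.0 CPM in CTCF-dRBR. The groups were separate, with CTCF-dRBR the higher. The log2 fold change was 0.47 ± 0.095 (SE), or 1.38-fold, with a 95% interval of 0.24 to 0.69 and an adjusted p of 0.108. Leaving out CTCF-dRBR replicate 1 brought the adjusted p to 0.0426 at a log2 fold change of 0.51, and leaving out any other library gave an adjusted p between 0.0826 and 0.482. Deposited TPM were 15.5, 18.8 and 30.4 in CTCF-WT and 42.1, 47.5 and 35.1 in CTCF-dRBR. On log2(TPM + 1) CXCR4 differed by 0.96, on a scale where the median of all genes shifted by 0.40 towards CTCF-dRBR. A two-sided exact permutation test gave p = 0.1, as low as 3 libraries against 3 can reach.

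ITGA4, the alpha chain of VLA-4 that binds VCAM1 on stroma and endothelium (ENSG00000115232.9, GRCh37 chr2:182321929-182403667, plus strand), gave the smallest p of the receptors. Its values were 121, 127 and 132 CPM in CTCF-WT and 191, 186 and 174 CPM in CTCF-dRBR, with no overlap between the groups. This was a log2 fold change of 0.53 ± 0.088 (SE), or 1.44-fold, with a 95% interval of 0.32 to 0.74 and an adjusted p of 0.0959. Without CTCF-dRBR replicate 1 it was 0.50 with an adjusted p of 0.0426, and without any other library the adjusted p lay between 0.0826 and 0.482. CERKL overlaps its far end on the opposite strand, and whether reads were counted by strand is not stated in the sources used here.

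CXCR4 and ITGA4 had the smallest p of the receptors, and the stretch before a start of each is shown next to that of CD44, which moved the other way in counts. Each line is the 250 bases before a RefSeq start site (GRCh38.p14), 5′ to 3′ on the gene's own strand, with CCCTC or its reverse complement GAGGG in capitals. CCCTC is the motif from which CTCF took its name, and it is a short core, not a full binding site.
CXCR4 (chr2:136118150-136118399, minus strand): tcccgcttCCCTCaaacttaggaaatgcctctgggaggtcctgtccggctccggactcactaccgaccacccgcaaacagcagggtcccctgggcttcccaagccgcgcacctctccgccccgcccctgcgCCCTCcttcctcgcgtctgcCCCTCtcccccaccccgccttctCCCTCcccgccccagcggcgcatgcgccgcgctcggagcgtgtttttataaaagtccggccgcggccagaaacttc
ITGA4 (chr2:181457136-181457385, plus strand): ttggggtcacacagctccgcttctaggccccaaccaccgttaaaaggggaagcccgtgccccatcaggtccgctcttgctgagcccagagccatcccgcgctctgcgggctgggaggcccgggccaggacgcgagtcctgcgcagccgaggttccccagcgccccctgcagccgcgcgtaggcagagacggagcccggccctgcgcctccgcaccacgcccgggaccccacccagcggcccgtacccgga
CD44 (chr11:35138921-35139170, plus strand): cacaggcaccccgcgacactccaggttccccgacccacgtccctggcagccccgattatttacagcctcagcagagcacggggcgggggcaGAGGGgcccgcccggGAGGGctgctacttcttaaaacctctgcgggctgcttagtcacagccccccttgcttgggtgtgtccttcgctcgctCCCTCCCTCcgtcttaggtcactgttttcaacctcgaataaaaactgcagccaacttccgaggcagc
The motif occurred 4 times in the CXCR4 window, 4 times in the CD44 window and 0 times in the ITGA4 window, and 66.6% of 35116 RefSeq promoters of the same length held it at least once on either strand. The 3 windows were GC-rich, at 68.0% for CXCR4, 72.8% for ITGA4 and 62.4% for CD44, beside a median of 58.0% over all promoters. The CXCR4 window shown belongs to its RefSeq start 1. The windows of its starts 2 and 3, not shown, had 55.6% and 51.6% GC and held the motif 3 and 4 times. Of the 9 receptors, 6 matched the RefSeq promoter table, and ITGAL, SELPLG and CCR7 did not.

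ITGA6, the laminin-binding alpha chain (ENSG00000091409.10, GRCh37 chr2:173292082-173371187, plus strand), was at 31.1, 31.5 and 34.2 CPM in CTCF-WT and 56.9, 42.1 and 38.2 CPM in CTCF-dRBR. The groups did not overlap, and the spread within CTCF-dRBR was led by replicate 1. Its log2 fold change was 0.46 ± 0.165 (SE), with an adjusted p of 0.174, and without replicate 1 it was 0.31 with an adjusted p of 0.108. In deposited TPM the groups overlapped, 3.69, 4.85 and 7.38 against 13.8, 9.28 and 6.46 (exact permutation test, p = 0.2). Rescaled over protein-coding genes they did not, with 12.2, 13.5 and 14.1 against 21.8, 17.0 and 14.9 TPM (exact permutation test, p = 0.1).

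ITGB1, the beta chain shared by ITGA4, ITGA6 and other alpha chains (ENSG00000150093.14, GRCh37 chr10:33176201-33294720, minus strand), was at 236, 243 and 288 CPM in CTCF-WT and 479, 288 and 273 CPM in CTCF-dRBR. Only CTCF-dRBR replicate 1 stood clear of CTCF-WT, since replicate 2 was level with the highest CTCF-WT library and replicate 3 lay within the CTCF-WT range. The log2 fold change of 0.39 ± 0.228 (SE, adjusted p = 0.278) became 0.14 without that library, with a 95% interval of -0.13 to 0.40.

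The balance of alpha to beta chain followed from these values. TPM of ITGA4 divided by TPM of ITGB1 was 0.643, 0.657 and 0.591 in CTCF-WT and 0.387, 0.795 and 0.771 in CTCF-dRBR. CTCF-dRBR replicate 1 lay under the CTCF-WT range and the other 2 above it, and the means did not separate (exact permutation test, p = 1). ITGA4 held 57.3% ± 1.202 of the summed TPM of 12 alpha chains that can pair with ITGB1 in CTCF-WT and 59.0% ± 1.89 in CTCF-dRBR (SD, n = 3, exact permutation p = 0.3). ITGA4 thus led these alpha chains at the RNA level in both groups. RNA levels do not show which beta chain ITGA4 pairs with. ITGB7, another beta chain, was at 14.4 ± 3.34 TPM in CTCF-WT and 20.6 ± 6.39 in CTCF-dRBR (SD, n = 3, exact permutation p = 0.3).

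ITGAL, the alpha chain of LFA-1 that binds ICAM1 (ENSG00000005844.13, GRCh37 chr16:30483979-30534888, plus strand), depended on the scale. In counts it was 30.7, 29.4 and 26.7 CPM in CTCF-WT and 22.8, 31.4 and 39.8 CPM in CTCF-dRBR, so the CTCF-dRBR libraries lay on both sides of CTCF-WT. ITGAL had a log2 fold change of 0.12 ± 0.206 (SE, adjusted p = 0.694), against 0.29 without CTCF-dRBR replicate 1 and -0.08 without CTCF-dRBR replicate 3. In deposited TPM the groups did not overlap, with 5.25, 6.48 and 10.6 in CTCF-WT and 16.3, 12.98 and 13.05 in CTCF-dRBR (exact permutation test, p = 0.1). They did not overlap after rescaling over protein-coding genes either, at 18.6 ± 1.52 and 26.5 ± 3.16 TPM (SD, n = 3, exact permutation p = 0.1). TPM relative to ITGB2, the beta chain with which it forms LFA-1, was 0.882, 0.873 and 1.40 in CTCF-WT and 5.46, 1.87 and 1.74 in CTCF-dRBR. These ratios did not overlap between the groups either (exact permutation test, p = 0.1), and the ratio of replicate 1 exceeded those of the other CTCF-dRBR libraries. Several long noncoding RNAs lie on the opposite strand within ITGAL.

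CD44, the hyaluronan receptor (ENSG00000026508.12, GRCh37 chr11:35160429-35253949, plus strand), was the only tested receptor with a negative log2 fold change. It was at 31.7, 34.2 and 31.5 CPM in CTCF-WT and 34.0, 20.5 and 18.4 CPM in CTCF-dRBR. Of the latter, replicates 2 and 3 lay under every CTCF-WT library, and replicate 1 lay within their range. This gave a log2 fold change of -0.51 ± 0.220 (SE, adjusted p = 0.203). Without CTCF-dRBR replicate 1 it was -0.74 ± 0.103, and CD44 then passed the test with an adjusted p of 0.0333. Without any other library its adjusted p lay between 0.263 and 0.486.

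The direction for CD44 turned in deposited TPM, which were 7.36, 9.85 and 16.7 in CTCF-WT and 31.4, 12.01 and 7.58 in CTCF-dRBR (exact permutation test, p = 0.6). The mean difference was 5.69 TPM with replicate 1 and -1.50 TPM without it. RSEM divides the count by an effective length averaged over the transcripts it assigns. CD44, known for its many splice forms, has 38 annotated transcripts here, in an annotation newer than the authors' version. Count divided by TPM, set relative to the median gene of the same library, was 107%, 106% and 88.7% of the CTCF-WT geometric mean in CTCF-WT, and 59.3%, 89.4% and 98.4% in CTCF-dRBR. ITGAL, with 22 annotated transcripts, showed the same drop in CTCF-dRBR replicate 1, to 57.6%, whereas CXCR4 stayed between 99.3% and 105% and ITGA4 between 99.0% and 110%. ITGB1, with 36 annotated transcripts, was at 84.1% in that library, and ITGA6 lay between 95.1% and 115% over all libraries. This quantity varied most over all genes in replicate 1 (SD 0.247 on the log2 scale, against 0.0777 in the steadiest library). Its part in the difference between the scales was not tested, and transcript-level values were not analysed here.

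**Figure D2:**
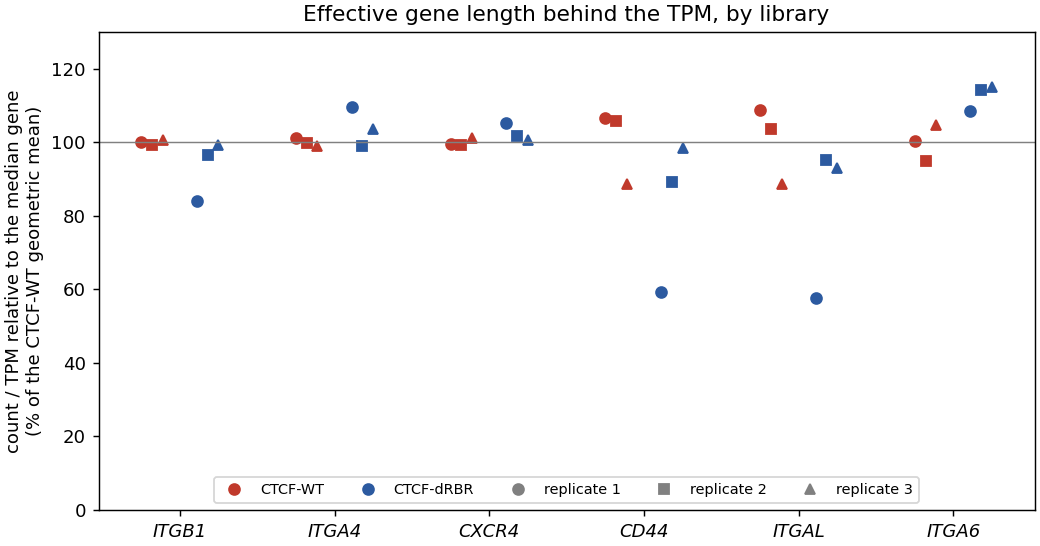
Count divided by TPM, relative to the median gene of each library and as a percentage of the CTCF-WT geometric mean, for 6 receptors (red, CTCF-WT, and blue, CTCF-dRBR, with symbols for the replicate). CD44 and ITGAL drop to 59.3% and 57.6% in CTCF-dRBR replicate 1, and CXCR4 and ITGA4 stay near 100%.

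CCR7, the receptor for CCL19 and CCL21 (ENSG00000126353.3, GRCh37 chr17:38710021-38721724, minus strand), was low, at 2.20, 2.30 and 2.17 CPM in CTCF-WT and 1.74, 2.23 and 3.13 CPM in CTCF-dRBR. The 3 CTCF-WT libraries were tight and the CTCF-dRBR libraries fell below, within and above them. CCR7 had a log2 fold change of 0.08 ± 0.238 (SE, adjusted p = 0.814), 0.24 without CTCF-dRBR replicate 1 and -0.14 without CTCF-dRBR replicate 3. The TPM ratio of CXCR4 to CCR7 averaged 32.7 ± 2.12 for CTCF-WT and 43.0 ± 10.9 for CTCF-dRBR (SD, n = 3, exact permutation p = 0.3).

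SELPLG (ENSG00000110876.8, GRCh37 chr12:109015671-109027670, minus strand) and S1PR1 (ENSG00000170989.8, GRCh37 chr1:101702421-101709269, plus strand) stayed under 1 CPM in every library and were not tested. SELPLG had 23, 19 and 15 counts in CTCF-WT and 16, 21 and 24 in CTCF-dRBR, and S1PR1 had 0, 2 and 7 counts and 2, 2 and 2 counts. Scaled to depth, the CTCF-dRBR to CTCF-WT ratio was 1.23 for SELPLG (95% exact interval 0.846 to 1.80) and 0.769 for S1PR1 (0.225 to 2.42). Both intervals include a ratio of 1, and they cover counting error only. A level of 3 counts, the limit that a count of 0 allows, corresponds to 0.0566 to 0.10 CPM over the 6 libraries.

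**Figure D3:**
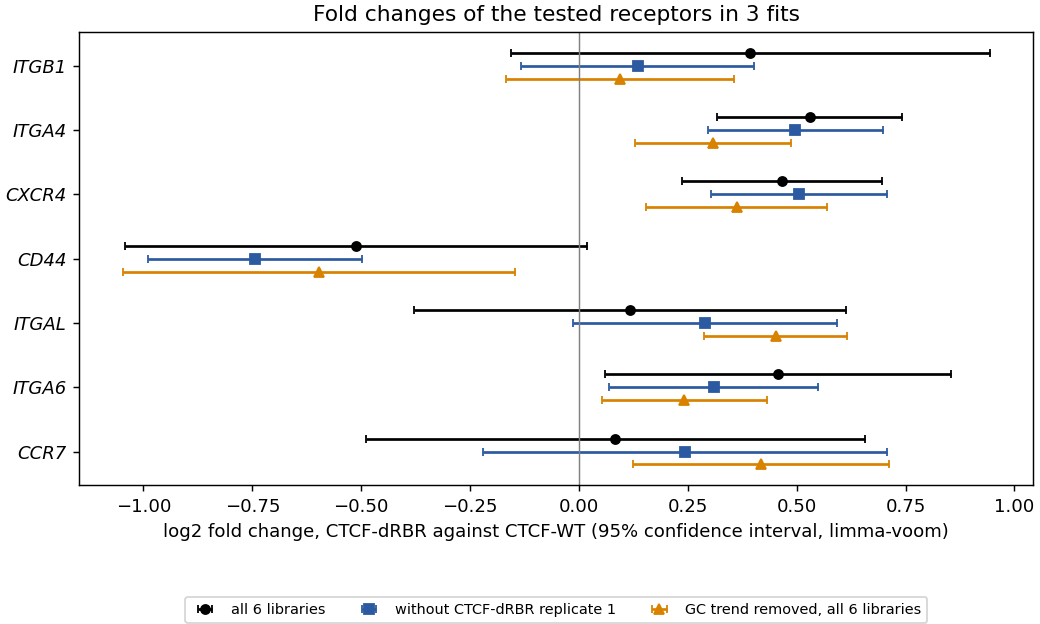
Log2 fold change (x axis, CTCF-dRBR against CTCF-WT, with 95% confidence intervals) of the 7 tested receptors in 3 limma-voom fits. CXCR4, ITGA4 and ITGA6 exclude 0 in all 3 fits, CD44 narrows to -0.74 without CTCF-dRBR replicate 1, and ITGAL moves from 0.12 to 0.45 once the GC trend is removed.

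The number of receptors called depended on how CTCF-dRBR replicate 1 and base composition were handled. Without that library 535 of 13731 genes were called, 1.52% higher and 2.37% lower, and among them were 2 receptors called higher, CXCR4 and ITGA4, and 1 lower, CD44. In those 5 libraries 4 receptors did not overlap with higher values (CXCR4, ITGA4, ITGAL and ITGA6, background 23.3%) and 1 with lower values (CD44, background 24.3%). The Wald test of DESeq2 on all 6 libraries called CXCR4 and ITGA4 higher with adjusted p of 0.000385 and 2.85e-05, where 5.38% of genes were called higher and 6.14% lower. Weighting libraries by quality, which gave replicate 1 a weight of 0.0969, called CXCR4, ITGA4, ITGB1 and ITGA6 higher and CD44 lower. That fit also called 32.5% of all genes higher and 35.8% lower, which is the background for these 5 calls.

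GC content differed among the receptors and moved with the libraries. Their transcripts had a GC content of 40.5% for ITGB1, 42.9% for ITGA6, 43.0% for ITGA4, 46.4% for CXCR4, 46.8% for CD44, 48.2% for S1PR1, 55.3% for ITGAL and CCR7 and 59.6% for SELPLG, beside a median of 47.8% over all genes tested. In CTCF-dRBR replicate 1 the log2 CPM of the low-GC genes ITGB1 and ITGA6 was 0.71 and 0.58 above the mean of the 6 libraries. ITGAL and CCR7, the tested receptors with the highest GC content, were at -0.38 and -0.37 there, and at 0.42 and 0.46 in CTCF-dRBR replicate 3.

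**Figure D4:**
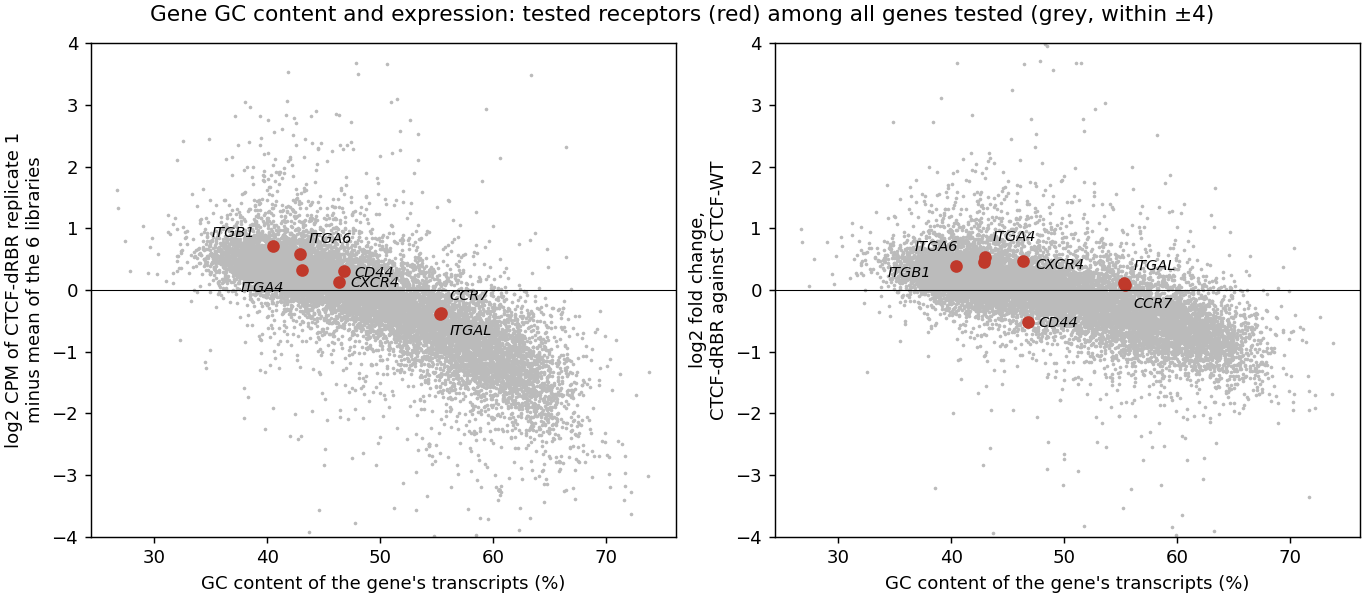
GC content of each gene (x axis, %) against its log2 CPM in CTCF-dRBR replicate 1 minus the mean of the 6 libraries (left) and against its log2 fold change (right), with the 7 tested receptors in red and all genes tested with a GC value in grey. In the left panel genes fall with GC content, with ITGB1 at 0.71 and ITGAL at -0.38.

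With a smooth trend against GC content removed from each library, the receptors other than CD44 and ITGB1 separated by group. ITGAL became 26.4, 26.3 and 26.4 CPM in CTCF-WT and 36.5, 34.5 and 37.3 CPM in CTCF-dRBR, with a log2 fold change of 0.45 ± 0.0685 (SE) and an adjusted p of 0.0203. CXCR4, at a log2 fold change of 0.36 (adjusted p = 0.0480), and ITGA4, at 0.31 (adjusted p = 0.0496), also passed the test. CCR7 was at 1.89, 2.06 and 2.15 CPM against 2.79, 2.45 and 2.93 CPM (adjusted p = 0.0748), ITGA6 kept a log2 fold change of 0.24 (adjusted p = 0.0961) and ITGB1 was left with 0.09 (adjusted p = 0.585). CD44 was at 34.8, 37.1 and 32.6 CPM against 32.9, 21.0 and 19.02 CPM (log2 fold change -0.60, adjusted p = 0.0887).

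Read against all genes, 3 of 7 receptors were called higher in that fit where 4.63% of genes were called higher and 5.86% lower, and 5 of 7 did not overlap with higher values where 18% of genes did so. Leaving out single libraries changed these calls. With the trend removed, 0 receptors were called when CTCF-WT replicate 1, CTCF-WT replicate 2, CTCF-dRBR replicate 2 or CTCF-dRBR replicate 3 was left out. Without CTCF-WT replicate 3, ITGAL alone was called (adjusted p = 0.0440, with 6.31% of genes called in either direction). Without CTCF-dRBR replicate 1, 5 were called, CXCR4, ITGA4, ITGAL and ITGA6 higher and CD44 lower, with 25% of genes called. The log2 fold change of ITGAL ranged from 0.43 to 0.49 over these 6 fits.

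The rest of the homing machinery was read from 9 lists of 149 genes around the receptors, of which 99 were tested and 0 were called. Of the 99, 26 did not overlap with higher values in CTCF-dRBR and 14 with lower values, beside 20% and 17.5% of all genes tested, and their median log2 fold change was -0.12. The counts of each list that follow are to be read against the same shares, and no list was tested against all genes or against another list.

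**Figure D5:**
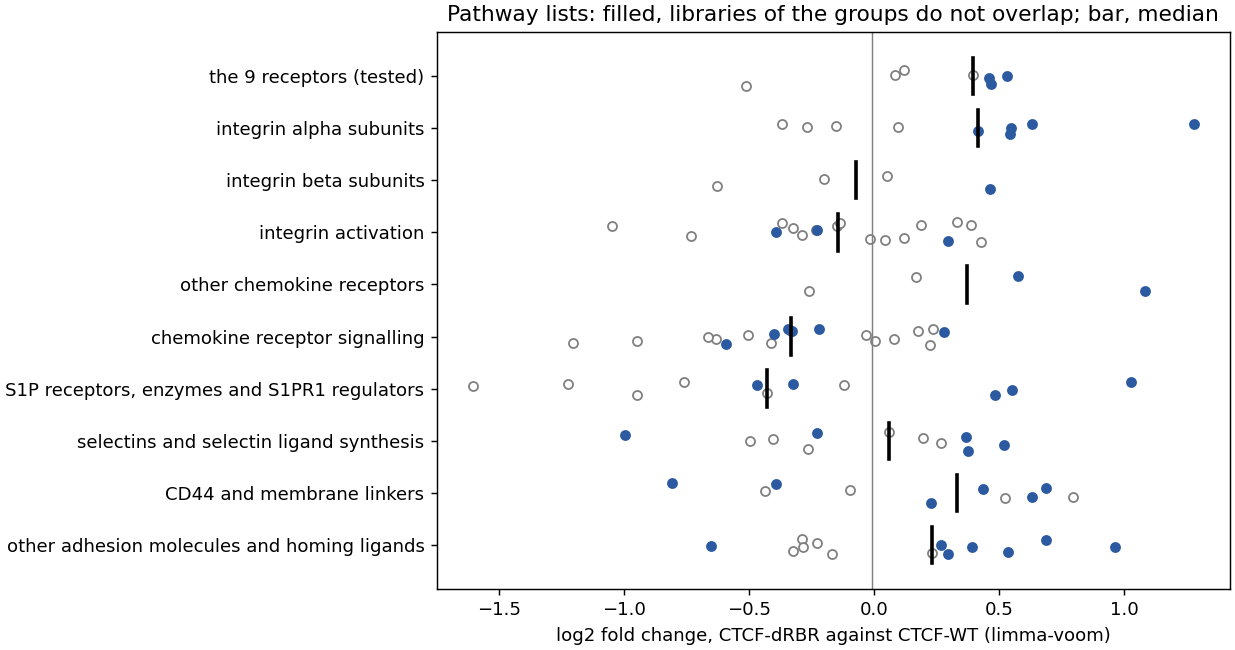
Log2 fold change (x axis, CTCF-dRBR against CTCF-WT) of the tested genes of the receptors and of 9 pathway lists (rows). Filled points are genes whose libraries do not overlap between the groups, black bars are medians, and the grey line is the median of all genes tested. The integrin alpha chains have a median of 0.42 and chemokine receptor signalling of -0.33. With the GC trend removed, which is not shown, these medians were 0.21 and -0.11.

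Other integrin alpha chains had log2 fold changes of both signs, and 0 were called. Of 9 tested chains, 5 did not overlap with higher values (background 20%) and 0 with lower values (17.5%), and 3, ITGA5, ITGA7 and ITGAE, had negative log2 fold changes of -0.15, -0.37 and -0.27. Of the 5, ITGA1 averaged 0.439 CPM in CTCF-WT, under the 1 CPM filter, and 1.20 CPM in CTCF-dRBR. Its place in that count thus leans on the group where it was higher. ITGA1, ITGA5 and ITGA7 are named here after their values were seen. The median was 0.42, and 0.21 with the GC trend removed. ITGAV, a vitronectin and fibronectin receptor chain, went from 36.4 ± 1.42 to 52.9 ± 5.28 CPM (SD, n = 3 each, log2 fold change 0.55, adjusted p = 0.108). ITGA9 and ITGA2, the latter a collagen receptor chain, had log2 fold changes of 0.63 and 0.42, with adjusted p of 0.125 and 0.146. ITGAE, the most abundant other alpha chain in TPM, had an adjusted p of 0.288. Of 4 other beta chains, ITGB8 was higher in all CTCF-dRBR libraries (log2 fold change 0.46, adjusted p = 0.137) and ITGB2 had -0.63 (adjusted p = 0.269), which turned to 0.0045 with the GC trend removed. ITGAE turned to 0.11 on log2(TPM + 1), a scale on which the median of all genes shifted to 0.40.

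Of 18 tested genes that switch integrins on or off, 1 did not overlap with higher values (background 20%) and 2 with lower values (17.5%), with a median of -0.14. That median turned to 0.058 without CTCF-dRBR replicate 1 and to 0.11 with the GC trend removed. ITGB1BP1, which restrains ITGB1 activation, had a log2 fold change of -0.39 (adjusted p = 0.155) in counts and of 0.19 on log2(TPM + 1). APBB1IP (RIAM), which brings talin to integrins, had 0.30 (adjusted p = 0.207).

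Around CXCR4 and CCR7, 4 of 20 other chemokine receptors were expressed enough to be tested. CCR1 was at 4.50 ± 0.411 CPM in CTCF-WT and 6.69 ± 0.378 in CTCF-dRBR (SD, n = 3 each, adjusted p = 0.132), and CCRL2, an atypical receptor, at 0.487 ± 0.129 and 1.08 ± 0.321 CPM (adjusted p = 0.149). Neither overlapped between the groups. CCRL2, however, reached 1 CPM in CTCF-dRBR only, so it entered the test through the group where it was higher, and its separation is no support. It had 18, 32 and 25 counts in CTCF-WT and 43, 51 and 42 in CTCF-dRBR. The signalling genes downstream had a median of -0.33, with 1 of 19 not overlapping with higher values (background 20%) and 5 with lower values (17.5%). GNB1, a G protein beta chain, was at 412 ± 10.3 CPM in CTCF-WT and 326 ± 31.5 in CTCF-dRBR (log2 fold change -0.34, adjusted p = 0.143). ARRB2, an arrestin that removes receptors from the surface, had -0.59 (adjusted p = 0.158), and DOCK2, which links chemokine receptors to Rac in leukocytes, had 0.28 (adjusted p = 0.158). On log2(TPM + 1) GNB1 turned to 0.32 and ARRB2 to 0.014, both under the shift of all genes there.

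S1PR1 itself had at most 7 counts in a library, and the regulators of it in the list differed in level. KLF2 averaged 0.969 CPM in CTCF-WT and 0.867 in CTCF-dRBR, with a log2 fold change of -0.12 (adjusted p = 0.776 by limma-voom). It is named here after its values were seen. FOXO1, a transcription factor known to promote homing receptor genes in lymphocytes, was at 5.40, 6.23 and 6.10 CPM in CTCF-WT and 12.9, 11.6 and 11.6 CPM in CTCF-dRBR. Its mean TPM was low, at 0.63 in CTCF-WT and 1.83 in CTCF-dRBR. The groups did not overlap, with a log2 fold change of 1.03 ± 0.136 (SE, adjusted p = 0.0959). It was called once the GC trend was removed (adjusted p = 0.0161, with 4.63% of genes called higher), and also in the 5 libraries left without CTCF-dRBR replicate 1 (adjusted p = 0.0305, with 1.52% called higher). It was not called without any other library, with an adjusted p between 0.0826 and 0.470. CD69, which pulls S1PR1 from the surface, had a log2 fold change of 0.55 (adjusted p = 0.140). Of the 11 genes of this list tested, 3 did not overlap with higher values and 2 with lower values (background 20% and 17.5%), and the median was -0.43. Dropping CTCF-dRBR replicate 1 moved this list median to -0.14. Removal of the GC trend, in all 6 libraries, moved it to 0.0077, so its negative sign depended on the processing.

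SELPLG needs glycosylation to bind selectins, and the next list holds selectins and the enzymes that make their ligands. Of 11 tested, 3 did not overlap with higher values and 2 with lower values (background 20% and 17.5%, median 0.06). ST3GAL4, a sialyltransferase for selectin ligands, was at 18.8, 18.7 and 14.8 CPM in CTCF-WT and 5.15, 10.0 and 11.8 CPM in CTCF-dRBR (log2 fold change -0.997, adjusted p = 0.150). GCNT1, which starts core branches on O-glycans, had 0.38 (adjusted p = 0.151).

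The list of CD44 and membrane linkers also split, with 4 of 10 not overlapping with higher values and 2 with lower values (background 20% and 17.5%, median 0.33). The 4 were HMMR, VIM, CD9 and ADAM10, and the 2 were EZR and MMP14. The list is wider than linkers and proteases of CD44, as it also holds HMMR, CD9, CD74 and SPP1. HMMR, CD9, ADAM10, CD74 and SPP1 are named here after their values were seen. That median was 0.17 with the GC trend removed. EZR, the ezrin linker, went from 407 ± 5.39 CPM in CTCF-WT to 310 ± 21.3 in CTCF-dRBR (SD, n = 3 each, log2 fold change -0.39, adjusted p = 0.115). VIM, the vimentin filament protein, went from 683 ± 25.4 to 924 ± 22.3 CPM (log2 fold change 0.44, adjusted p = 0.0988). MMP14, a membrane protease that can cleave CD44, had -0.81 (adjusted p = 0.169). EZR and MMP14 turned to 0.24 and 0.0738 on log2(TPM + 1), again under the shift of all genes.

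Among 13 other adhesion molecules and homing ligands tested, 6 did not overlap with higher values and 1 with lower values (background 20% and 17.5%, median 0.23). CD38, which can bind PECAM1 on endothelium, was at 15.8, 15.5 and 15.8 CPM in CTCF-WT and 31.3, 32.2 and 28.5 CPM in CTCF-dRBR. This was the smallest p of all genes in the lists, with a log2 fold change of 0.96 ± 0.112 (SE, adjusted p = 0.0959). The lists were chosen with earlier results of these data known, so this rank only describes the lists. CD38 too was called in the 5 libraries without CTCF-dRBR replicate 1 (adjusted p = 0.0281, background 1.52%) and once the GC trend was removed (adjusted p = 0.0171, background 4.63%), but not without any other library (adjusted p between 0.0826 and 0.470). Among the named genes, ITGA9 and VIM were also called higher in both fits. ITGAV was called higher and GNB1 lower only without CTCF-dRBR replicate 1, and ITGAV had an adjusted p of 0.501 with the GC trend removed. CCR1 and DOCK2 were called higher, and EZR and ST3GAL4 lower, only with that trend removed. The shares of all genes called lower in these fits were 2.37% and 5.86%. PODXL, a sialomucin, had -0.65 (adjusted p = 0.112), ALCAM had 0.53 (adjusted p = 0.164) and CD164, another sialomucin, had 0.27 (adjusted p = 0.170) in counts and -0.13 with the GC trend removed.

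The receptors did not share one profile over the 6 libraries. The protein-coding genes most like each in log2 CPM were NDRG3 and DFNA5 for CXCR4 (Pearson's r 0.993 and 0.993), EYA4 and RRAGD for ITGA4 (0.999 and 0.997), VAPB and SNRPG for CD44 (0.995 and 0.994), and GNA15 and RHOC for ITGAL (0.992 and 0.985). ITGB1 was most like NSUN3 and NSA2 (0.999 and 0.999), ITGA6 like ARL14EP and SLC39A8 (0.999 and 0.999), and CCR7 like HLA-F and C6orf89 (0.976 and 0.964). Of about 7889 genes compared, ITGB1 and ITGA6 had 1144 and 1316 with r over 0.95, and CXCR4 and CD44 had 69 and 67. Between receptors, r was 0.959 for ITGAL and CCR7, 0.947 for ITGB1 and ITGA6 and 0.946 for CXCR4 and ITGA4, and it was -0.78 for CXCR4 and CD44, whose GC contents are 46.4% and 46.8%. These correlations describe 6 points that share their groups and the GC trends of their libraries.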

How the data were processed

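Total RNA libraries were made with an rRNA depletion kit. The authors trimmed reads with Trim Galore (version 0.6.3), aligned them to GRCh37 (hg19) with STAR (2.7.9a) and quantified Gencode genes with RSEM (1.3.1), per the methods and labels. Reads were paired-end per the methods and single-end per the labels. The deposited expected counts are RSEM estimates per gene, not normalized. The deposited TPM were divided by effective length and scaled by the authors over all genes, small RNAs included.

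Only genes reaching 1 CPM in some library were kept, and the unrounded counts were TMM-normalized (edgeR 4.0.16) and compared by limma-voom (limma 3.58.1, R 4.3.3), two-sided, with Benjamini-Hochberg adjustment over 14044 genes and a threshold of 0.05. ERCC spike-in rows (92) were left out. Single values were compared by exact permutation tests. DESeq2 (1.42.0) and other alternatives are described after the report. The GC trend was a loess curve (span 0.5, degree 2) on log2 CPM (prior count 1), for the 13654 genes (97.2%) with a GC value from Gencode transcripts of GRCh37. Scripts were tested on simulated data. Coordinates come from that annotation, which is newer than the authors' version. Of 149 list symbols, 3 were not matched.

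The receptors and the lists were chosen with earlier results of these data known. Named genes are the 9 receptors, CTCF, up to 3 genes of each list with the smallest p and its most abundant gene, and the 2 genes most like each tested receptor (mean TPM of at least 5). The effective lengths and chain ratios were added after values were seen. Counting intervals cover counting error only.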

Additional observations from a re-analysis of the deposited data

How the results depend on the processing

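Main counts were 0 genes, 0 receptors, and 3 and 0 receptors not overlapping with higher and lower values. The genes called became 1619 with DESeq2 (2 receptors), 9583 with library quality weights (5 receptors), 1432 with the GC trend removed (3 receptors called, 5 not overlapping with higher values), and 833 and 760 on log2(TPM + 1) and log2(TPM + 0.1), where the receptors called stayed at 0. Without a filter on low counts 1 receptor, CD44, lay all below. Leaving out 1 library at a time, with or without the GC trend, gave 0 to 3334 genes and 0 to 5 receptors called, and 0 to 1 all below. The GC fits without 1 library, and the list counts below, were chosen after seeing the data. Count of receptors called was also 0 with edgeR, DESeq2 size factors, filterByExpr and protein-coding genes alone.

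On TPM, the median log2 fold change of all genes was 0.40 (+ 1) or 0.54 (+ 0.1), and these signs turned, in that order of pseudocounts: CD44 0.39 and 0.41, ITGAE 0.11 and 0.12, ITGB5 0.58 and 0.59, ITGB1BP1 0.19 and 0.20, ACKR2 0.043 and 0.14, GNB1 0.32 and 0.32, ARRB2 0.014 and 0.015, CERS2 0.25 and 0.25, EZR 0.24 and 0.25, MMP14 0.0738 and 0.075. Relative to that shift, CXCR4 (0.96), ITGA4 (1.02) and ITGB1 (1.05) stayed above the median on log2(TPM + 1), and CD44 lay just under it. With the GC trend removed ITGB2 turned to 0.0045, ITGB5 to 0.12, C1GALT1C1 to -0.0736 and CD164 to -0.13. Without the filter CCR7 turned to -0.0072 and RHOA to -0.020. Leaving out 1 library, RHOA ranged from -0.0541 to 0.16, ITGAL from -0.078 to 0.29, CCR7 from -0.14 to 0.24 and ITGB1 from 0.14 to 0.55. The CD44 difference then ranged from -1.50 to 10.4 TPM. With 1 library left out and the GC trend also removed, ITGAL ranged from 0.43 to 0.49 and CCR7 from 0.36 to 0.50. ITGB1 then ranged from -0.016 to 0.17. The cause of these turns was not tested.

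The replicate numbers did not pair the libraries: correlations of same-numbered libraries' deviations were -0.34, 0.10 and -0.47, and no library correlated best with its own number. A replicate block called 0 genes and 0 receptors, with adjusted p of 0.419 for CXCR4 and ITGA4 and 1423 genes at an unadjusted p under 0.05.

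Integrin alpha chains not overlapping with higher values numbered 5 of 9 in all libraries, 4 of 8 without CTCF-dRBR replicate 1 and 4 of 9 with the GC trend removed, against 20%, 23.3% and 18% of all genes. The downstream chemokine signalling genes not overlapping with lower values numbered 5, 5 and 7 of 19, against 17.5%, 24.3% and 21.9%. At this depth the counting intervals of SELPLG and S1PR1 reach from 0.846 to 1.80 and from 0.225 to 2.42, so smaller differences were not detectable.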
